A study of Mus musculus with 6 samples.

Results

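The loci of 9 cofactors and regulators of the Notch pathway were examined for accessible chromatin in Beko cells, a line of mouse T-cell progenitors whose Notch signaling is always on. The genes were chosen by name. They fall into 2 feedback targets of the pathway, Dtx1 and Nrarp, and 7 constitutive components, Rbpj, Maml1, Maml2, Maml3, Spen, Fbxw7 and Numb. Every accessible interval (peak) that overlapped the gene body or 50 kb on either side was counted, which gave 77 of the 32527 peaks of the list, 17 at the feedback targets and 60 at the constitutive components. Chromatin was profiled by ATAC-Seq, in which a transposase inserts adapters into open DNA, in 6 libraries. For 3 of them the cells had received DAPT, an inhibitor of γ-secretase (GSI), for 24 h, and for the other 3 they had received the solvent DMSO for as long. The labels give the dose of DAPT as 10 mg/ml and the methods give it as 10 µg/ml. All 6 libraries come from this 1 cell line, and no genotype differs between the groups. The analysed list merges the peaks of both treatments and holds positions only. No value belongs to a single library, so there is no replicate error, no test was possible, and GSI was not compared with DMSO. The values below describe whether a region was accessible in at least 3 of the 6 libraries.

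In the Notch pathway, γ-secretase releases the intracellular domain of the receptor, which enters the nucleus and joins the DNA-bound factor RBPJ and a coactivator of the Mastermind-like family. Without that domain, RBPJ holds corepressors at the same DNA. Dtx1 and Nrarp are transcribed when the pathway is active and their products act back on it, whereas the other genes encode parts of the machinery that most cells carry throughout.

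The marker genes of the cell type were checked by the same criterion, a peak within 1 kb of an annotated start of the gene. Of 12 T progenitor markers that could be matched, 11 had such a peak, Cd3d being the exception, beside 47.0% of all protein-coding genes. None of the 3 matched myeloid markers (Csf1r, Itgam and Lyz2) had one. Copies of the 77 peaks elsewhere in the genome, which could draw reads away from them, were searched for. None of the peaks had a copy over at least 80% of its length at 95% identity or more.

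The RBPJ motifs that the results below turn on are given first. RBPJ binds the hexamer TGGGAA, which was searched for on both strands of the mm9 reference, and the bases printed in capitals mark it in each sequence. The 12 sites listed here are all that the peaks of Dtx1 intron 3, the peak upstream of Nrarp and the peak at the Nrarp start hold. Each is written 5′ to 3′ in the orientation that reads TGGGAA, with 8 bases on either side, and the coordinates (mm9) are those of the hexamer.
Dtx1 intron 3 peak 5, chr5:121135679-121135684, minus strand: gacctcttTGGGAAaaaaaagt
Dtx1 intron 3 peak 5, chr5:121135841-121135846, minus strand: tgacagcaTGGGAActgtgtta
Dtx1 intron 3 peak 5, chr5:121135889-121135894, plus strand: ttttgatgTGGGAAgacaccgc
Dtx1 intron 3 peak 5, chr5:121136051-121136056, minus strand: accagggcTGGGAAtggtagct
Dtx1 intron 3 peak 6, chr5:121138536-121138541, minus strand: aggggccgTGGGAAcagcaacc
Dtx1 intron 3 peak 6, chr5:121138588-121138593, minus strand: cccctcccTGGGAAgctgagcc
Dtx1 intron 3 peak 6, chr5:121138715-121138720, plus strand: gggatgggTGGGAAgccaggct
Dtx1 intron 3 peak 6, chr5:121138762-121138767, plus strand: gcaagactTGGGAActtgttgt
Nrarp upstream peak 1, chr2:25023629-25023634, minus strand: ggcgcgccTGGGAAcggccccc
Nrarp upstream peak 1, chr2:25023671-25023676, minus strand: ggcaggcgTGGGAAagcgggag
Nrarp upstream peak 1, chr2:25023724-25023729, plus strand: cccccgtcTGGGAAcctcctgc
Nrarp start peak, chr2:25037204-25037209, minus strand: cggggccgTGGGAAggctctgg
The sites share the hexamer and little else, since their flanking bases differ. The longer form TGTGGGAA or CGTGGGAA occurred in 4 of the 12 sites, 1 in each of the 4 peaks. Where the motifs lie close together, the stretch of the peak that joins them is shown on the plus strand, in which a motif on the minus strand appears as TTCCCA, also in capitals.
Dtx1 intron 3 peak 6, chr5:121138521-121138782: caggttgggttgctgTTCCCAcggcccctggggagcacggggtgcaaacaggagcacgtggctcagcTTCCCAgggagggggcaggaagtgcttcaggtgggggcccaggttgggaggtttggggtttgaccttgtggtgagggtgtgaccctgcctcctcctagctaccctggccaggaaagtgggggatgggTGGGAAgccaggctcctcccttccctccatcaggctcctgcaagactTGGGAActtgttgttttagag
Nrarp upstream peak 1, chr2:25023614-25023744: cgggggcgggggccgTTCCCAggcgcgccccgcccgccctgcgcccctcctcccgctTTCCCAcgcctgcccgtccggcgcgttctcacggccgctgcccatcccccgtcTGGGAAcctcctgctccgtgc

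The windows of both feedback targets held more peaks per 100 kb than that of any of the 7 constitutive components, while the counting intervals of the groups overlapped. Dtx1, which encodes a ubiquitin ligase of the Deltex family, had 10 peaks in a window of 131.7 kb, or 7.59 peaks per 100 kb. Nrarp, which encodes a small ankyrin repeat protein that binds the RBPJ complex and limits Notch signaling, had 7 peaks in 102.6 kb, or 6.82 per 100 kb. Together these 2 loci held 7.26 peaks per 100 kb (95% exact Poisson interval 4.23 to 11.6). The 7 constitutive loci together held 3.51 peaks per 100 kb (2.68 to 4.52), with single genes between 1.89 and 5.03, so the values of the single genes did not overlap between the groups, whereas the intervals did. Intervals in this text cover counting error only, and neither the peaks of a locus nor the loci are replicates of a condition.

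**Figure D1:**
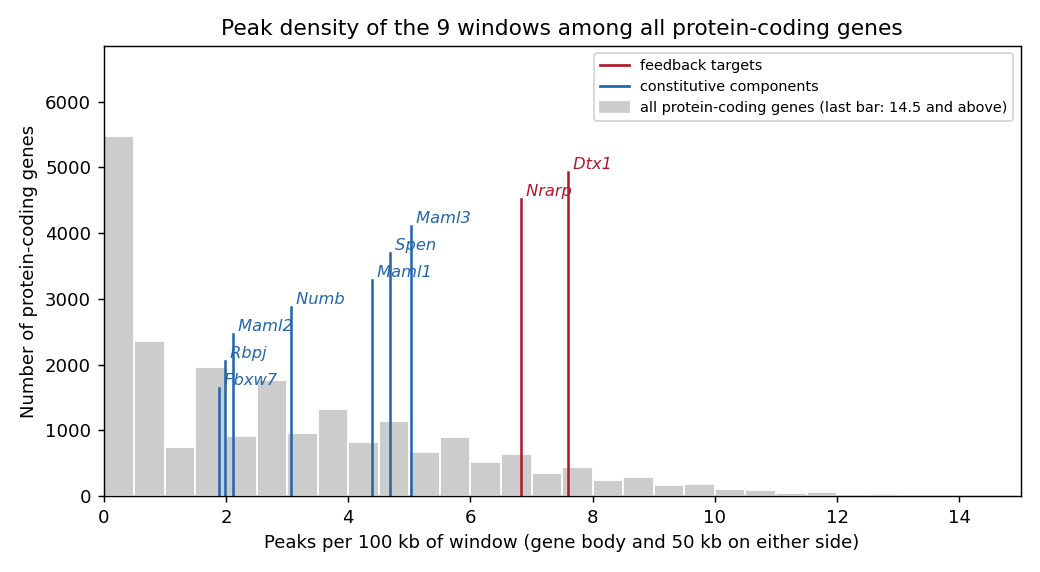
Peaks per 100 kb of window on the x axis and the number of protein-coding genes in each bin on the y axis (grey bars), with a line for each of the 9 genes, red for feedback targets and blue for constitutive components. The height of a line carries no value. Dtx1 at 7.59 and Nrarp at 6.82 lie to the right of all 7 constitutive components, of which Maml3 at 5.03 is the highest.

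Among the same windows of 22367 protein-coding genes, the median was 2.38 peaks per 100 kb with quartiles of 0.569 and 4.71. Dtx1 stood at percentile 92.4 of these genes and Nrarp at percentile 89.4. The constitutive components spread over the middle and upper part of the range, from percentile 44.2 for Fbxw7, 46.7 for Rbpj and 47.8 for Maml2, over 59.6 for Numb, to 72.0 for Maml1, 74.8 for Spen and 78.2 for Maml3. Peaks covered 5.81% of the Dtx1 window and 7.02% of the Nrarp window, against a median of 1.60% over protein-coding genes.

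The number of neighbouring genes differed between the windows too. In the Nrarp window 6 other protein-coding genes have a start (5.85 per 100 kb), and in the Dtx1 window 3 have one (2.28 per 100 kb), while the constitutive components ran from 0 for Fbxw7 to 2.93 per 100 kb for Maml1, above the value of Dtx1. The median over protein-coding genes was 1.81 such genes per 100 kb. Without the peaks within 1 kb of a start of another gene, the feedback targets held 5.55 peaks per 100 kb and the constitutive components 2.81. Dtx1 then had 6.07 and Nrarp 4.87 per 100 kb, and Maml3, the densest constitutive locus, had 4.64. Gene length differed as well. Dtx1 (31.7 kb) and Nrarp (2.57 kb) were the shortest of the 9 genes and so had the smallest windows. The constitutive components ran from 36.7 kb for Maml1 to 417.3 kb for Maml3. The percentiles above were taken over all protein-coding genes, not over genes of like length. The parts of gene density and gene length in the difference were not tested.

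**Figure D2:**
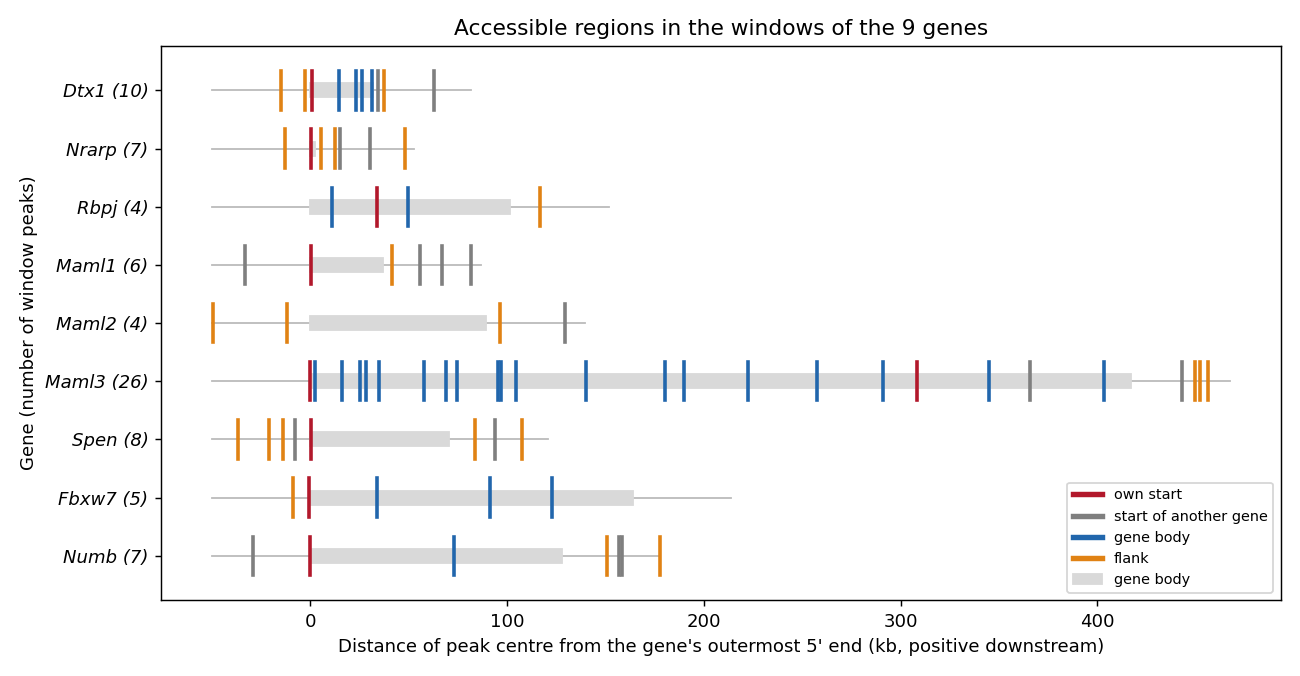
The 9 windows, with the distance of each peak centre from the outermost 5′ end of the gene in kb on the x axis, positive downstream, and 1 row per gene with its number of window peaks. Vertical marks are peaks (drawn at equal width, not to scale), coloured by class, thick grey bars are gene bodies and thin lines the rest of the windows. The 10 peaks of Dtx1 crowd into and around a short gene, the 26 of Maml3 are strung along its body, and the body of Maml2 is empty.

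Each of the 77 peaks was put in 1 class. There were 9 within 1 kb of a start of the gene itself, 16 within 1 kb of a start of another gene only, 29 elsewhere in the gene body and 23 in the flanks. Median widths were 1318 bp at own starts, 937 bp at starts of other genes, 480 bp in gene bodies and 421 bp in flanks. Over the whole list the medians were 855 bp for peaks within 1 kb of a start and 465 bp for all others. The median of the own-start peaks thus lay above the upper quartile of 1086 bp that such peaks have over all protein-coding genes, while intronic and flanking peaks were close in width to distal peaks in general. Of the window peaks, 19 (24.7%) were CpG-rich, that is, had a GC content from 50% upwards and CpGs at 0.6 or more of their expected number, beside 26.1% of all peaks, and 8 of these 19 were at own starts.

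A peak lay at an own start in 8 of the 9 genes, both feedback targets and 6 of the 7 constitutive components, beside 47.0% of protein-coding genes. The exception was Maml2. Of the wider Notch pathway, 45 of 56 listed genes that could be matched had such a peak (80.4%), and the median density of their windows was 3.91 peaks per 100 kb. Of these 56 genes, 12 had a window at least as dense as that of Nrarp, which stood at percentile 89.4 of all protein-coding genes. Among the 12 were genes of the signaling machinery such as Mfng (9.35 per 100 kb), Numbl (8.89) and Aph1a (7.67). Target genes of the pathway ranged from 0.905 per 100 kb for Hey2, over 3.86 for Hey1 and 3.94 for Hes5, to 6.77 for Hes1 and 13.5 for Hes7, so that a high density was neither found at all targets nor limited to them. These genes were named after their values were seen. The 11 listed genes without a peak at an own start were the ligand genes Dll1, Dll3 and Jag1, the glycosyltransferase gene Lfng, Dtx3, the corepressor genes Ctbp2, Tle1 and Tle2, and the target genes Hes5, Hes7 and Hey2.

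**Figure D3:**
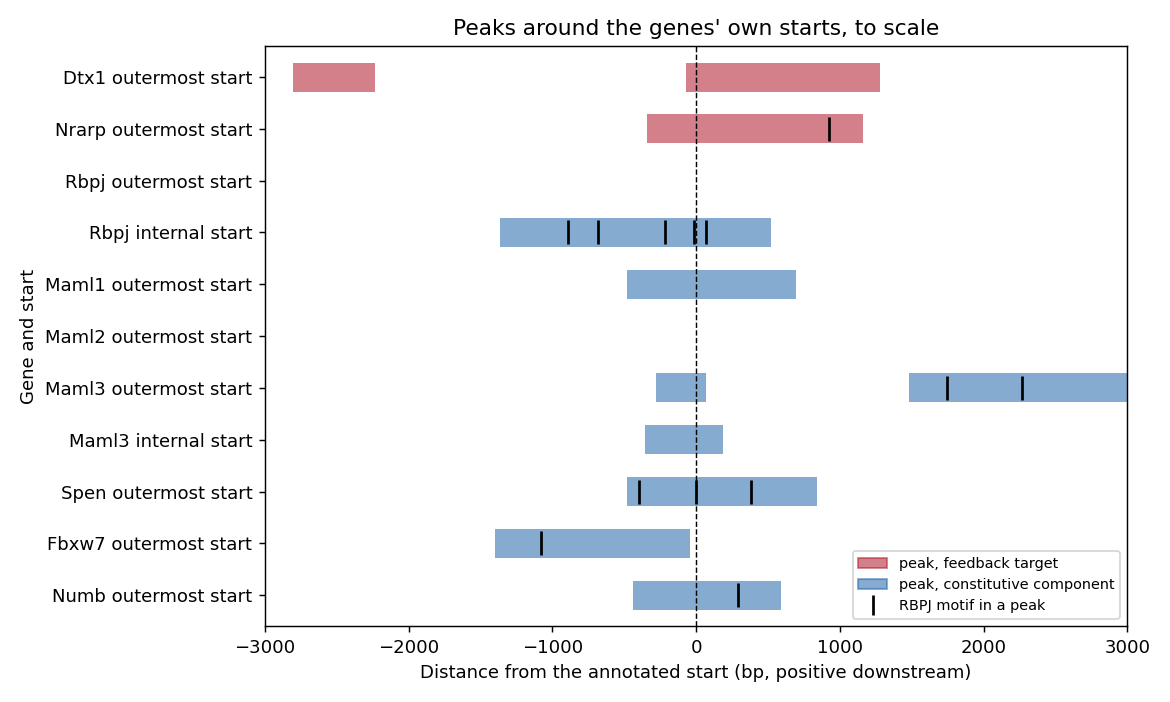
Peaks within 3 kb of 11 annotated starts, with the distance from the start in bp on the x axis, positive downstream, and 1 row per start (the outermost of each gene, and an internal one of Rbpj and Maml3). Bars are peaks to scale, red for feedback targets and blue for constitutive components, and black ticks are RBPJ motifs (TGGGAA on either strand) within them. The outermost starts of Rbpj and Maml2 have no peak nearby, the Fbxw7 peak stops short of its start, and the Rbpj peak at an internal start holds 5 motifs.

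Dtx1 (chr5:121130211-121161936, minus strand) had the densest window of the 9 genes. The peak at its start was 1356 bp wide and reached 1281 bp into the gene but only 74 bp upstream of the start. It was CpG-rich, held 9 copies of the SP box GGGCGG and had no TGGGAA. The motifs lay further in. Both peaks of intron 3 held 4 each, peak 5 at chr5:121135584-121136251 (668 bp, centre 26019 bp downstream of the 5′ end) and peak 6 at chr5:121138358-121139044 (687 bp, centre 23235 bp downstream), with 2106 bp between them. That is 5.99 and 5.82 motifs per kb of peak, against 0.893 over all peaks. In the whole list 0.661% of peaks had 4 or more motifs, and among the 20923 peaks of at most 700 bp only 34 (0.163%) had as many.

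The 4 motifs of Dtx1 peak 5 spanned 378 bp with gaps of 156, 42 and 156 bases, 3 on the strand of the gene and 1 on the opposite strand. Those of peak 6 spanned 232 bp with gaps of 46, 121 and 41 bases, 2 on each strand. The other peaks of the gene body, 320 bp over the last exon and 556 bp in intron 2, had none. Of the 3 peaks beyond the 3′ end, which lie in the neighbouring gene Rasal1, the 1751 bp peak at the outermost Rasal1 start was the widest of the window and held 2 motifs. The 495 bp peak nearer to Dtx1, within 1 kb of another annotated Rasal1 start, also held 2, both of the form TGTGGGAA. Upstream of Dtx1, a peak of 568 bp at 2520 bp had no motif and a peak of 404 bp at 14773 bp had 1.

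**Figure D4:**
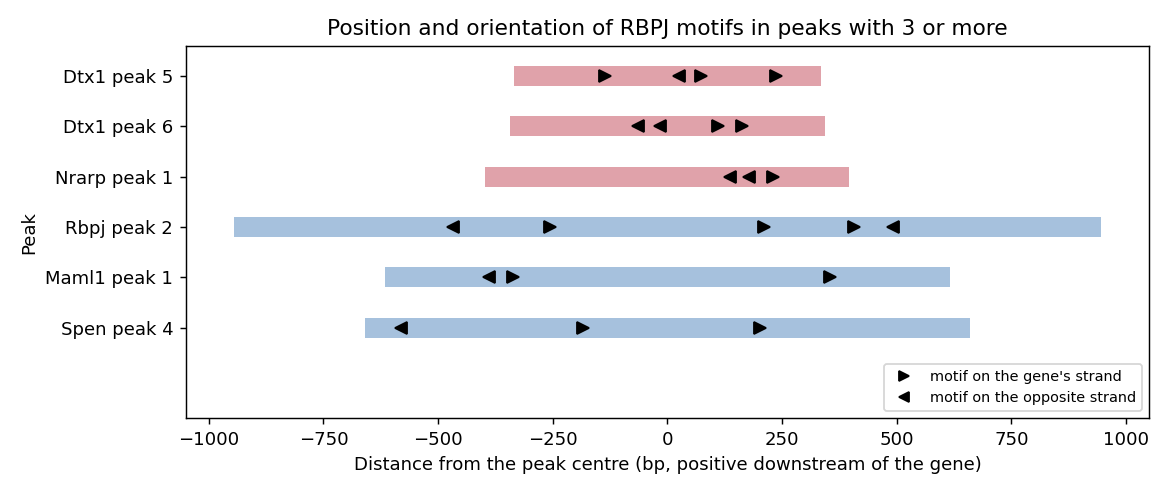
The 6 window peaks with 3 or more RBPJ motifs, 1 per row, with the distance from the peak centre in bp on the x axis, positive downstream with respect to the gene. Bars are the peaks to scale, red for feedback targets and blue for constitutive components, and arrowheads are motifs pointing right on the strand of the gene and left on the opposite strand. The 4 motifs of each Dtx1 peak lie in peaks of 668 and 687 bp, while the 5 of Rbpj are spread over 964 bp of a peak of 1889 bp.

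Nrarp (chr2:25036278-25038850, plus strand) is 2.57 kb long, so that nearly all of its window is flank. Its start peak was 1506 bp wide, from 344 bp upstream to 1161 bp downstream of the start. It was CpG-rich and held 7 SP boxes and 1 RBPJ motif, 926 bp downstream of the start, in the form CGTGGGAA. The peak with the most motifs lay away from the start. Per kb, the start peak had 0.664 motifs, beside 0.833 over all peaks of the Nrarp window. Peak 1, at chr2:25023099-25023892 (794 bp, centre 12783 bp upstream), held 3 motifs within 101 bp, with gaps of 36 and 47 bases, and all 3 lay on the side of the peak that faces the gene. Downstream of the gene were a CpG-rich peak of 941 bp without a motif, 5412 bp from the start, and the widest peak of the window, 2108 bp at the start of A830007P12Rik, with 1 motif. A peak of 911 bp at the start of Cobra1 also had 1 motif.

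Rbpj, which encodes the DNA-binding factor itself (chr5:53947018-54048684, plus strand), had 4 peaks in its window. None of them was at its outermost start, for which the nearest was 10632 bp away. The peak at its internal starts, at chr5:53980087-53981975, was 1889 bp wide and covered both the start at position 53981454 and that at 53981813. It held 5 RBPJ motifs, more than any other window peak, a number that 0.163% of all peaks reach, and 9 SP boxes. That share takes no account of width, and the peak is wider than the upper quartile of own-start peaks, 1086 bp. Per kb it held 2.65 motifs, below the 5.99 and 5.82 of the Dtx1 intron 3 peaks. The sites are shown because they lie at the gene of the factor that binds them, in the same layout as above.
Rbpj internal start peak, chr5:53980562-53980567, minus strand: acgggccgTGGGAAatttccta
Rbpj internal start peak, chr5:53980773-53980778, plus strand: gcaggagcTGGGAAatctcttg
Rbpj internal start peak, chr5:53981240-53981245, plus strand: agagctctTGGGAAgggtcagc
Rbpj internal start peak, chr5:53981436-53981441, plus strand: aaaaaggcTGGGAAcccgcggc
Rbpj internal start peak, chr5:53981520-53981525, minus strand: aggggtccTGGGAAaatgcgag
Only the site farthest upstream had the longer form, CGTGGGAA. The 5 sites spanned 964 bp, with at least 78 bases between neighbours, so they were more widely spaced than those of Dtx1 intron 3. Both other peaks in the gene, of 645 bp and 461 bp in intron 1, held 1 motif each, and the flank peak of 326 bp held none. No start of another gene lay within 1 kb of any Rbpj window peak.

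The genes of the Mastermind-like coactivators, which bridge RBPJ and the Notch intracellular domain to histone acetyltransferases, differed from each other. Maml1 (chr11:50069136-50105838, minus strand) had 6 peaks, 1 of them in its gene body. This peak, 1173 bp wide and CpG-rich, covered all 3 annotated starts and had no RBPJ motif. The 4 peaks at starts of other genes belonged to Sqstm1 and Mgat4b, to Mgat4b, to the lincRNA Gm16641 and to Canx. The first of these, which was the widest of the window at 1232 bp, held 3 motifs, and the other 3 held 1 each.

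Maml2 (chr9:13424434-13513832, plus strand) was the 1 gene of the 9 without a peak in its gene body, which 46.1% of protein-coding genes also lacked. The nearest peak to its 5′ start was 11761 bp away, a flank peak of 434 bp. The other peaks of the window were 368, 421 and 937 bp wide, the last at the start of Mtmr2. None of the 4 peaks, which cover 1.14% of the window, held any of its 177 RBPJ motifs.

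Maml3 (chr3:51491533-51908813, minus strand) is the longest of the genes at 417.3 kb and had 26 peaks, 22 of them overlapping the gene or at its starts. Its outermost start carried a peak of only 349 bp, from 281 bp upstream to 67 bp downstream, below the lower quartile of 660 bp for the 10736 own-start peaks of protein-coding genes. A CpG-rich peak of 1609 bp, the widest of the window, lay in intron 1 with its centre 2284 bp downstream of that start, and 1412 bp separated the pair. A peak of 545 bp covered an internal start. The RBPJ motif occurred in 11 of the 26 peaks, with at most 2 in any of them, and was absent from both peaks at own starts. A peak of 1479 bp at the start of Mgst2 held 2 motifs.

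Spen, which encodes a corepressor that binds RBPJ and recruits histone deacetylases (chr4:141023805-141094512, minus strand), had 8 peaks. Only the peak at its start, 1318 bp wide, overlapped the gene. This peak held 12 SP boxes, the most among the own-start peaks, and 3 RBPJ motifs, a number that 4.49% of own-start peaks of protein-coding genes reach and 2.95% of all peaks. The sites are shown because 1 of them ends 3 bp upstream of the outermost annotated start.
Spen start peak, chr4:141094128-141094133, minus strand: cctctgggTGGGAAacttaccg
Spen start peak, chr4:141094515-141094520, minus strand: cgcgccggTGGGAAgcgtccgg
Spen start peak, chr4:141094910-141094915, plus strand: cgcctgctTGGGAAagtggtcg
The widest peak of the Spen window was that of 1631 bp at the start of the pseudogene B330016D10Rik, 7815 bp upstream of Spen, and it held 2 motifs of the form CGTGGGAA. A peak of 1572 bp, 20811 bp upstream, held 2 as well. A CpG-rich peak of 763 bp at the start of Zbtb17 held none.

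Fbxw7 encodes the F-box protein that marks the Notch intracellular domain for degradation (chr3:84619190-84783120, plus strand). It had 5 peaks and the lowest density of the 9 windows, 1.89 per 100 kb. Its start peak of 1357 bp lay wholly upstream and ended 46 bp before the start, with 1 RBPJ motif. The other peaks were narrow, between 356 and 480 bp. The 480 bp peak of intron 1, 33674 bp downstream of the start, held 2 motifs, both of the form TGTGGGAA and on the strand of the gene.
Fbxw7 intron 1 peak, chr3:84652685-84652690, plus strand: agtgaatgTGGGAAcgaaaatc
Fbxw7 intron 1 peak, chr3:84652916-84652921, plus strand: aggtactgTGGGAAgcctgttg
The annotation also places the gene body of Arfip1, on the opposite strand, over this peak and the other peaks within Fbxw7.

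Numb encodes an adaptor of endocytosis that counteracts the Notch receptor (chr12:85134984-85262884, minus strand). It had 7 peaks, 2 of them in the gene or at its starts. The start peak was 1034 bp wide and held 1 RBPJ motif, 293 bp downstream of the outermost start. The 441 bp peak of intron 3 held no RBPJ motif but 4 E-boxes CAGCTG, a number that 0.962% of all peaks reach and 46 of the 13999 peaks of at most 500 bp. The 854 bp peak within Rasal1 in the Dtx1 window also had 4. The widest Numb peak was that of 1308 bp at the start of 2410016O06Rik, and peaks of 937 and 870 bp lay at starts of Papln.

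**Figure D5:**
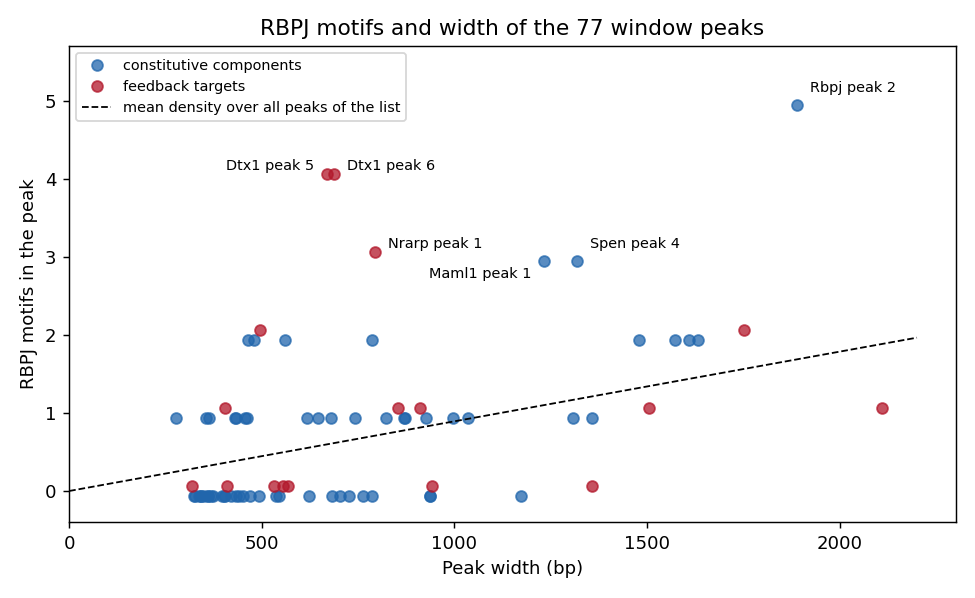
Peak width in bp on the x axis and number of RBPJ motifs (TGGGAA on either strand) on the y axis for the 77 window peaks, red for feedback targets and blue for constitutive components, with the groups shifted slightly apart on the y axis. The dashed line is the mean of 0.893 motifs per kb over all peaks of the list. The peaks of Dtx1 intron 3 with 4 motifs and Nrarp peak 1 with 3 lie furthest above the line among peaks under 1 kb.

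Across the loci, the share of peaks with an RBPJ motif had overlapping intervals in both groups. It was 10 of 17 peaks at the feedback targets (58.8%, 95% exact binomial interval 32.9% to 81.6%) and 30 of 60 at the constitutive components (50%, 36.8% to 63.2%), beside 42.5% of all peaks. Without the peaks at starts of other genes, the share was 46.2% at the feedback targets and 43.8% at the constitutive components, close to that of all peaks. The feedback targets had 1.35 motifs per kb of peak (95% exact Poisson interval 0.822 to 2.08) and the constitutive components 1.08 (0.793 to 1.44). The first value rested on Dtx1, as without it the feedback targets, then Nrarp alone, had 0.833 motifs per kb, and without Nrarp they had 1.83.

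The position of the motifs was then compared. In gene bodies away from starts the feedback targets had 3.59 motifs per kb of peak, all 8 of them from Dtx1 intron 3, and the constitutive components 1.19. At own starts the order was the opposite, with 0.349 at the feedback targets, 1 motif in 2 peaks, and 1.30 at the constitutive components, 10 motifs in 7 peaks. Of these 10 motifs, Rbpj and Spen held 8. Counts this small do not allow the classes to be ordered beyond counting error.

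Per kb, the motif was slightly less dense in the whole windows than in their peaks, with 1.16 sites per kb of feedback window and 1.01 per kb of constitutive window. Of 271 sites in the feedback windows 20 lay inside peaks (7.38%), where peaks covered 6.34% of the sequence. In the constitutive windows 46 of 1730 lay inside peaks (2.66%), where peaks covered 2.49%. For Dtx1 the values were 14 of 154 (9.09%) at a cover of 5.81%, the ratio being 1.56. It was highest for Rbpj, at 2.16, and below 1 for Nrarp (0.730), Maml1 (0.993), Maml3 (0.916), Numb (0.863) and Maml2, with 0 of 177 at a cover of 1.14%.

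The longer form TGTGGGAA or CGTGGGAA was found in 13 of the 77 peaks, 6 of 17 at the feedback targets and 7 of 60 at the constitutive components, beside 6.45% of all peaks. Counted by motif, 7 of the 20 sites of the feedback targets had it (35.0%, exact binomial interval 15.4% to 59.2%), as did 9 of the 46 of the constitutive components (19.6%, 9.36% to 33.9%), beside 11.5% of the 19067 sites in all peaks. The intervals of the groups overlap.

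A pair of motifs that face each other at 15 to 17 bases, the arrangement on which RBPJ complexes can dimerise, was searched for with TGGGAA or TGAGAA on either side. None of the 77 peaks held one, and 0.178% of all peaks did. The study allowed more mismatches in its own search for such pairs, so this absence holds for exact motifs only. With 1 mismatch allowed in 1 of the motifs, 3 peaks held such a pair, Dtx1 peak 5 and the Maml3 peaks 13 and 19, beside 2.90% of all peaks. They are printed on the plus strand, with both motifs in capitals, since they are the nearest that these loci come to that arrangement.
Dtx1 peak 5, chr5:121135656-121135684: TGAAAAgcttcaaaaacttttttTTCCCA
Dtx1 peak 5, chr5:121135820-121135846: CGAGAAccttctgtaacacagTTCCCA
Maml3 peak 13, chr3:51728636-51728663: TGAGAAaccacaacaaagccagTTCTCT
Maml3 peak 19, chr3:51839676-51839702: TGGGAAccaggtgcagtccgtTGCTCA
A match describes letters in a window and is not by itself evidence that RBPJ occupies the site. The paper does report RBPJ binding at Dtx1, which it names among the loci whose binding is static, that is, unaffected by GSI. A primer pair that it lists for ChIP-qPCR at Dtx1 lies within peak 5, and the forward primer holds a motif of that peak. RBPJ occupancy was not examined here for any of the peaks.

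Motifs of other factors were present at about the share seen over the whole list. The SP box GGGCGG was in 28 window peaks (36.4%) beside 38.7% of all peaks, and in 8 of the 9 own-start peaks, beside 76.6% of all peaks within 1 kb of a start. The E-box CAGCTG was in 30 (39.0%) beside 42.7%, and the RUNX motif TGTGGT in 31 (40.3%) beside 41.4%. At own starts, both feedback targets had an E-box and none of the 7 constitutive peaks had one, beside 40.5% of all peaks within 1 kb of a start, and 9 peaks are too few to tell the groups apart.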

How the data were processed

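ATAC-Seq libraries of Beko cells were prepared with a commercial kit and sequenced by the authors. Per the methods of the study, reads were aligned to mm9 with HISAT2 2.2.1, keeping 1 alignment per read, so that reads from repeated sequence go to 1 of several equal places. Duplicates were removed with Picard, peaks were called in each library with MACS2 without input, and peaks found in 3 of the 6 libraries were kept after removal of blacklisted regions. The deposited values are chromosome, start and end in bp of 32527 peaks, in 1 list without values per library. A shift of read ends for the transposase offset is not given in the sources used here. Read depth was not used. A rule of 3 libraries can keep peaks of a single treatment without recording where each came from.

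Gene models and sequence came from NCBIM37 (mm9) with GENCODE, and exon and intron numbers refer to the longest transcript. Positions are counted from 1. Counts, widths and motifs on both strands were computed with Python 3.11.15, numpy 2.4.6 and scipy 1.17.1, copies with minimap2 2.31, and plots with matplotlib 3.10.9. Exact binomial and Poisson intervals (95%) were used, and no p-value was computed. On simulated data 200 of 200 planted pairs and 200 of 200 sequences with planted sites were recovered. The genes, lists and tests were chosen with earlier results of these data known. Peaks described singly are those at own starts, the widest of each window, those with 3 or more motifs and those at starts of other genes. The Numb, Fbxw7 and Rasal1 peaks and the other peaks given for completeness were picked after their values were seen. Kmt2d, Ptcra and Spi1 were not matched to 1 coding gene and were not analysed here. A further marker list is not reported here.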

Additional observations from a re-analysis of the deposited data

How the results depend on the processing

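The planned comparison of GSI with DMSO, with and without the replicate block and leaving out each replicate, was not run. No paired analysis was possible because single libraries have no values in the merged list. Of the other alternatives, 37 left the value about where it was (densities and shares within the counting interval, counts within 1.5 times) and 12 moved it further. The number of window peaks was 48 with flanks of 10 kb, 119 with flanks of 100 kb, 38 in gene bodies only and 45 among peaks of at least 500 bp. Peaks per 100 kb at the feedback targets rose to 14.8 with flanks of 10 kb (11 peaks) and to 17.5 in gene bodies only (6 peaks). Both genes are short, so these values rest on small windows. The constitutive components had 3.22 and 3.18 at the same settings. Among peaks of at least 500 bp the constitutive components fell to 1.87, where the feedback targets had 5.55. The share of constitutive peaks with a motif was 66.7% when TGAGAA was allowed too and 20.0% in the central 200 bp. At the feedback targets these shares were 58.8% and 35.3%, both within their wider counting interval. Motifs per kb were 1.88 at the constitutive components when TGAGAA was allowed and 2.65 at the feedback targets in the central 200 bp. The value of 2.65 rests on 9 motifs, most of them in peaks of the Dtx1 window. Head-to-head pairs went from 0 to 3 peaks with 1 mismatch. The count of 8 genes with a peak at an own start was the same in the alternatives run. Leaving out Dtx1, Nrarp or Maml3 was chosen after seeing the data. Without Maml3 the constitutive components had 2.86 peaks per 100 kb. The cause of these changes was not tested. The merged list cannot show how strongly a region was open, or in which treatment.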
